A study of Homo sapiens with 3 samples.

Results

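The AP-1 transcription factor genes and ATF3 were followed in Caco-2, a line from a human colon carcinoma that takes on features of the gut lining in culture. The members were taken by gene symbol and are FOS, FOSB, FOSL1, FOSL2, JUN, JUNB, JUND and ATF3, 8 of the 60664 gene identifiers counted. The groups, with 1 RNA sequencing library each, were DSS+polydatin (30 µM polydatin from 2 h ahead of, and throughout, 8 h in 3% dextran sulfate sodium, DSS), DSS (3% for 8 h alone) and control (neither agent). DSS is a sulfated polysaccharide that injures the colon lining in animal models of colitis. Polydatin is a plant stilbene, resveratrol carrying a glucose. The labels give the cells as wild type and name no passage, clone or culture, so with 1 library a group the effects of treatment, culture and library preparation cannot be told apart.

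AP-1 is a dimer of basic leucine zipper proteins. JUN proteins pair with themselves or with FOS proteins, FOS proteins need a JUN partner, and the dimers bind a short element, the TRE, in genes of growth, wound repair, matrix breakdown and inflammation. ATF3, a stress-induced member of the ATF and CREB family, pairs with itself or with JUN proteins and binds the related element CRE. Several of these genes are immediate early genes, transcribed within minutes of growth factor, cytokine or stress signals that reach them through MAP kinases.

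The promoters of 4 genes that were higher in both steps (DSS over control, DSS+polydatin over DSS) are shown with that of FOS, which was level across the 3 libraries. The windows are RefSeq sequence of GRCh38.p14, gene strand, 250 bases before to 50 after the annotated start site. Capitals mark the CRE (TGACGTCA), its core (TGACGT, on either strand and also counted inside a CRE) and the CRE-like element TGACATCA.
JUN, chr1:58783998-58784297, minus strand: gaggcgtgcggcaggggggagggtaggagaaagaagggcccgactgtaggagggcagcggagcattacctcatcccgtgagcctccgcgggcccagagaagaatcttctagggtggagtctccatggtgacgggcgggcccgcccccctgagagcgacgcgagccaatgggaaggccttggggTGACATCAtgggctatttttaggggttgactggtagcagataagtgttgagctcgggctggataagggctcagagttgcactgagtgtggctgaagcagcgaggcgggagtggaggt
JUND, chr19:18281573-18281872, minus strand: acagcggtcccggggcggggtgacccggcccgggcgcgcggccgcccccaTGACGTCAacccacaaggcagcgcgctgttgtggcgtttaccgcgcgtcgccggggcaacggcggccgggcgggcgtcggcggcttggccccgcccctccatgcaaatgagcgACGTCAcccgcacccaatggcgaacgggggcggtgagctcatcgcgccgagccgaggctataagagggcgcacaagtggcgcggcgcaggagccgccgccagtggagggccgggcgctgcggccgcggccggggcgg
ATF3, chr1:212565157-212565456, plus strand: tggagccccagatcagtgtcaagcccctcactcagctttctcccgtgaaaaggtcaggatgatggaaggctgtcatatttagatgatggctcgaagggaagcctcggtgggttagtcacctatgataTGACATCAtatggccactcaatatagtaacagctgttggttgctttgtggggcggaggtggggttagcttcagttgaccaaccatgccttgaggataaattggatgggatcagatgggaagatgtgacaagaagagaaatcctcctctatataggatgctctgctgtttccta
FOSB, chr19:45467746-45468045, plus strand: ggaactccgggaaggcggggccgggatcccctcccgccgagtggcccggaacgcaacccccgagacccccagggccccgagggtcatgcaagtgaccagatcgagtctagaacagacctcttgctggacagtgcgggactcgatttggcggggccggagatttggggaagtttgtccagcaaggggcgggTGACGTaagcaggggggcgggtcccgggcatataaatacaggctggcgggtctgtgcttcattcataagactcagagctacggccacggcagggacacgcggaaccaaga
FOS, chr14:75278578-75278877, plus strand: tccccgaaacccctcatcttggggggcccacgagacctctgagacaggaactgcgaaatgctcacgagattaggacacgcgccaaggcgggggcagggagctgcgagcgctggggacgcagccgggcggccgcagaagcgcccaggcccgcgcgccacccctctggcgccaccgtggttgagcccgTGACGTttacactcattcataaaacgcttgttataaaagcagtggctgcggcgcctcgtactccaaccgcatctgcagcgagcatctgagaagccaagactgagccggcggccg

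JUN and the upstream start of ATF3 carried the same 8 letters, TGACATCA, at position -67 in JUN and -123 in ATF3, counted from the start site. That element was found in 2.61% of 35116 promoter windows of the same length, with both strands searched. JUND carried a full CRE at -200, found in 1.85% of windows, and a further CRE core at -87. FOSB had a core at -60, FOS at -64 and FOSL2 at -66, and 7.98% of all windows held one. FOSL2 was the only member window with a TRE (TGANTCA), at position 5, an element found in 7.71% of windows. The CArG box, the site of serum response factor, was in no member window and in 1.29% of all windows. Sequence more than 250 bases before a start was not searched, so a CArG box farther upstream would have been missed. FOS, JUNB and FOSB had the letters TATAAA at -33, -31 and -30, and 11.5% of all windows held them. The window of a second ATF3 start held TATAAA at -230 and none of the other elements named here. Sequence between those ATF3 windows was not searched, so any other start of the gene is not covered. The table matched 7 of the 8 members, with FOSL1 the one not matched. These matches describe letters in a window and not binding.

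Library totals were 16667622 counts for DSS+polydatin, 18825914 for DSS and 18695613 for control, so a CPM of 1, the unit of scaled counts used here, stood for 17.4, 18.5 and 18.2 counts. Of 13 epithelial markers 11 were measured, with summed levels of 7452 CPM in DSS+polydatin, 9312 in DSS and 7756 in control, while CDX1 was at 0 counts and KRT20 was under 1 CPM in each library. The intestinal factor gene CDX2 stood at 78.3, 117.7 and 146.8 CPM in the same order and was the one epithelial marker called, lower in DSS+polydatin over DSS (0.665) and over control (0.533). The leukocyte gene PTPRC was at 0 counts in all 3. Over the whole marker lists, 2 of 6 immune markers were measured, with summed levels of 4.93, 7.99 and 3.36 CPM, and 5 of 8 endothelial and stromal markers, at 64.0, 61.2 and 74.1 CPM. Mitochondrial transcripts took 4.34%, 4.77% and 5.31% of counts. Most transcripts of replication-dependent histone genes lack a poly(A) tail. Those of 12 such genes summed to 174.3 CPM in DSS+polydatin, 175.3 in DSS and 82.6 in control. Of the 9 measured, 8 were called higher in DSS over control, against 9.45% of all measured genes. The part of these shifts in the AP-1 values was not tested.

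Ratios between libraries carry exact 95% intervals that cover counting error only, and no p-value is given because each group has 1 library. A gene was called where its ratio reached 1.5-fold in either direction and the interval left out 1. A gene was measured when it reached a CPM of 1 in at least 1 library, which 14792 genes did. All 8 members were measured, FOSB through the DSS+polydatin and DSS libraries alone. In bulk RNA a change in the number of cells expressing a gene and a change in RNA per cell cannot be told apart.

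In DSS-treated cells most AP-1 genes and ATF3 stood above control. Called higher were JUN, JUND, ATF3, FOSB and FOSL1, 5 of 8 members, against 9.45% of measured genes called higher. FOSB, at 0.716 CPM in control, passed the CPM filter only through the libraries where it was high. None of the 8 was called lower, against 5.81% of measured genes. FOSL2 fell just short of the 1.5-fold limit, and FOS and JUNB were level with control. The median log2 ratio over the 8 members was 0.85, beside -0.006 over all measured genes.

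With polydatin added to DSS, FOSB, JUN, JUND and ATF3 were called higher again, and JUNB, level in the DSS step, was called higher too. DSS+polydatin was called higher than DSS for ATF3, JUND, FOSB, JUN and JUNB, 5 of 8 members, against 5.39% of measured genes. After correction for GC content and length 2 of them, FOSB and ATF3, were called. None was called lower, against 2.60%. The median log2 ratio was 0.63, beside -0.012 over all measured genes. The DSS library enters both comparisons, as numerator in one and denominator in the other. Over the DSS+polydatin and control pair, 7 members were called higher and none lower, all but FOS, against 16.0% and 12.4% of measured genes, with a median log2 ratio of 1.56 beside -0.020.

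Total-count scaling moved the split of all calls in DSS+polydatin over DSS to 82.9% higher, against 67.5% with the main scaling, and in DSS+polydatin over control to 70.5%, against 56.4%. In the same comparisons the 5 and 7 members called higher remained 5 and 7. Among measured genes within the members' own range of highest level, 4.70 to 297.2 CPM, 8.64% were called higher in DSS over control and 3.75% in DSS+polydatin over DSS.

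**Figure D1:**
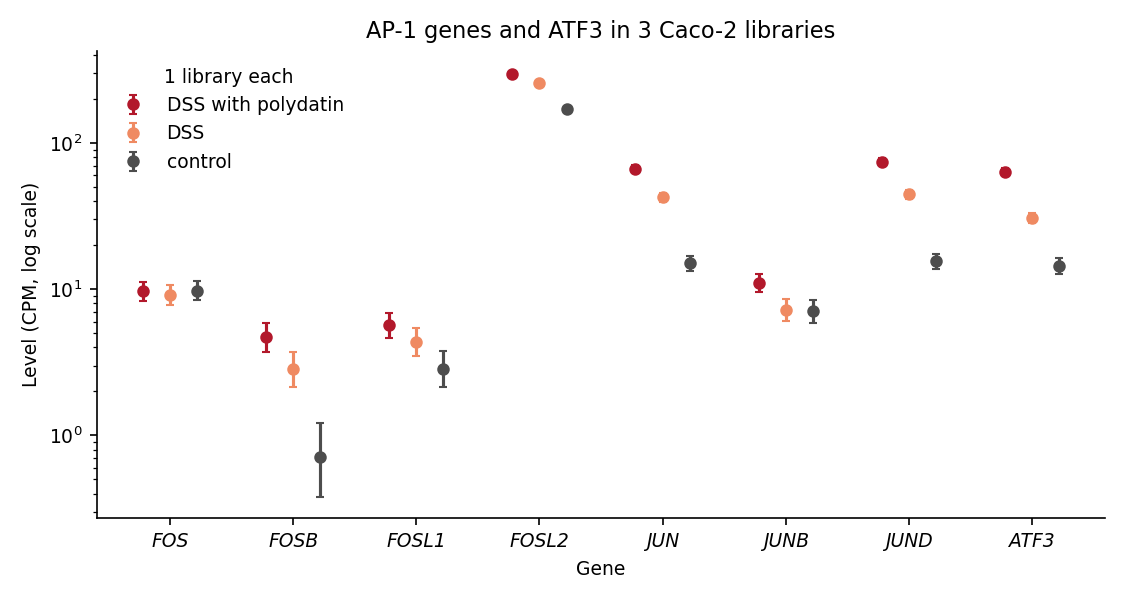
Level of each AP-1 gene and ATF3 (CPM, log axis) in the DSS+polydatin, DSS and control libraries, 1 library each, with exact 95% Poisson intervals as bars. JUN, JUND and ATF3 lie highest in DSS+polydatin and lowest in control with no overlap of intervals, FOS lies at 9.69, 9.18 and 9.75 CPM, and FOSL2 is the most abundant at 170.9 CPM or more.

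JUN (chromosome 1, 58780788 to 58784327, GRCh38, minus strand, a single-exon gene) encodes the founding subunit of AP-1, which can pair with itself. It had 1160 counts in DSS+polydatin, 789 in DSS and 272 in control, or 66.5, 42.6 and 15.0 CPM. The 3 Poisson intervals did not overlap. JUN was 2.84-fold higher in DSS than in control (2.47 to 3.28), a ratio exceeded by 1.93% of measured genes, and 1.56-fold higher in DSS+polydatin than in DSS (1.43 to 1.71), exceeded by 6.21%.

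JUND (chromosome 19, 18279760 to 18281622, minus strand) encodes the JUN protein that is usually present in resting cells and is linked to restraint of growth. It had 1296 counts in DSS+polydatin, 827 in DSS and 282 in control, or 74.3, 44.6 and 15.5 CPM. These values, not scaled for gene length, ran close to those of JUN in each library. Per kilobase of annotated exon, JUND stood at 2.12 times JUN in DSS+polydatin, 1.99 times in DSS and 1.97 times in control. The ratio was 2.87 in DSS over control (2.51 to 3.30) and 1.67 in DSS+polydatin over DSS (1.53 to 1.82). The count of JUND per count of JUN, which needs no scaling between libraries, was 1.12 in DSS+polydatin (1.03 to 1.21), 1.05 in DSS (0.9496 to 1.16) and 1.04 in control (0.875 to 1.23).

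JUNB (chromosome 19, 12791496 to 12793315, plus strand, a single-exon gene) encodes a subunit that counters JUN in several cell types. It had 193 counts in DSS+polydatin, 133 in DSS and 128 in control, or 11.1, 7.18 and 7.05 CPM. JUNB was thus level in DSS and control, with a ratio of 1.02 (0.793 to 1.31), and 1.54-fold higher in DSS+polydatin than in DSS (1.23 to 1.94). The gene overlaps exons of HOOK2 on the other strand, and the strand setting of the counting is not given, so reads of the pair could not be separated. HOOK2 stood at 49.5 CPM in DSS+polydatin, 39.8 in DSS and 37.6 in control.

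After correction of the ratios for a trend along GC content and length, JUN, JUNB and JUND were no longer called in DSS+polydatin over DSS, at 1.47-fold (1.34 to 1.61), 1.37-fold (1.09 to 1.72) and 1.40-fold (1.29 to 1.53). The JUND transcript has the highest GC content of the 8 members, 69.7%, followed by JUNB at 64.9%, while that of ATF3 is the lowest at 46.7%.

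ATF3 (chromosome 1, 212565334 to 212620777, plus strand) had 1110 counts in DSS+polydatin, 569 in DSS and 262 in control, or 63.7, 30.7 and 14.4 CPM, with no overlap of intervals. The DSS over control ratio was 2.13 (1.84 to 2.47), exceeded by 3.91% of measured genes, and the DSS+polydatin over DSS ratio was 2.07 (1.87 to 2.30), exceeded by 1.87%. ATF3 was the member with the highest ratio in the polydatin step and the fourth highest in the DSS step. It was the one member called at 2-fold in DSS+polydatin over DSS. The same correction for GC content and length left its ratios at 2.16 in DSS+polydatin over DSS and 2.22 in DSS over control. Counts of ATF3 per count of JUN were 0.957 in DSS+polydatin (0.881 to 1.04), 0.721 in DSS (0.646 to 0.804) and 0.963 in control (0.810 to 1.15), so relative to JUN the DSS library was the low one.

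**Figure D2:**
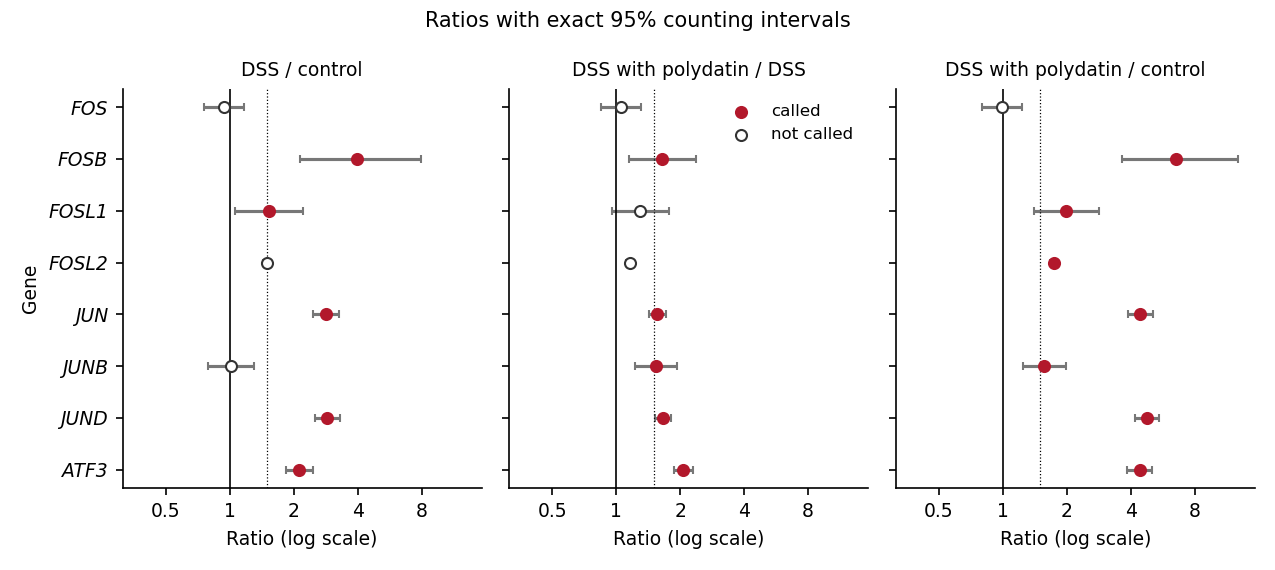
Ratio of each member between libraries (log axis) with exact 95% counting intervals, filled where called and open where not, and with a dotted line at 1.5. FOS stays at 1 in all 3 panels, JUNB is called in the panels with DSS+polydatin, and FOSL2 touches the dotted line in DSS over control at 1.498.

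FOSB (chromosome 19, 45467995 to 45475179, plus strand) encodes a FOS protein whose short splice form accumulates in neurons after repeated stimulation. It was the least abundant member, with 82 counts in DSS+polydatin, 53 in DSS and 13 in control, or 4.70, 2.86 and 0.716 CPM. Its ratio was 4.00 in DSS over control, with a wide interval set by the 13 control counts (2.15 to 7.99), and 1.64 in DSS+polydatin over DSS (1.15 to 2.37). FOSB shares its locus with ERCC1, with no exon in common in the annotation used.

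FOSL1 (chromosome 11, 65892049 to 65900573, minus strand) encodes FRA1, a FOS protein without the strong activation domain of FOS. It had 99 counts in DSS+polydatin, 81 in DSS and 52 in control, or 5.68, 4.37 and 2.86 CPM. The ratio was 1.53 in DSS over control (1.07 to 2.21) and 1.30 in DSS+polydatin over DSS, where the interval reached 1 (0.958 to 1.76). After the GC and length correction the DSS ratio was 1.36 (0.946 to 1.96) and no longer called. At these counts smaller differences were not detectable.

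FOSL2 (chromosome 2, 28392448 to 28417312, plus strand) encodes FRA2, and its deeper counts gave the narrowest intervals. It had 5183 counts in DSS+polydatin, 4744 in DSS and 3104 in control, or 297.2, 256.1 and 170.9 CPM. The ratio was 1.498 in DSS over control (1.43 to 1.57) and 1.16 in DSS+polydatin over DSS (1.12 to 1.21). Neither was called, and total-count scaling took the first to 1.52 and made it a call. The ratio in DSS+polydatin over control was 1.74 (1.66 to 1.82).

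FOS (chromosome 14, 75278774 to 75282230, plus strand), the classic immediate early gene, had 169 counts in DSS+polydatin, 170 in DSS and 177 in control. Its ratio was 0.941 in DSS over control (0.758 to 1.17), 1.06 in DSS+polydatin over DSS (0.849 to 1.32) and 0.994 in DSS+polydatin over control (0.801 to 1.24). Differences within those bounds could not be seen at this depth. DSS exposure was sampled at 8 h only, so an earlier change in FOS could not be seen either. Against the count of FOS in the same library, JUN stood at 6.86 in DSS+polydatin (5.84 to 8.12), 4.64 in DSS (3.93 to 5.51) and 1.54 in control (1.27 to 1.87). ATF3 per count of FOS was 6.57 in DSS+polydatin (5.58 to 7.77), 3.35 in DSS (2.82 to 4.00) and 1.48 in control (1.22 to 1.80). The balance of JUN and ATF3 to FOS therefore differed between all 3 libraries beyond counting error.

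Per kilobase of annotated exon, with all exons of a gene summed, the order of levels changed between libraries. In DSS+polydatin it was FOSL2 at 41.5 CPM per kb, JUND at 39.9, JUN at 18.79, ATF3 at 15.8, JUNB at 6.08, FOSL1 at 3.01, FOS at 2.99 and FOSB at 0.847. In DSS it was FOSL2 at 35.8 CPM per kb, JUND at 24.0, JUN at 12.03, ATF3 at 7.60, JUNB at 3.94, FOS at 2.83, FOSL1 at 2.32 and FOSB at 0.515. In control it was FOSL2 at 23.9 CPM per kb, JUND at 8.34, JUN at 4.23, JUNB at 3.87, ATF3 at 3.57, FOS at 3.01, FOSL1 at 1.52 and FOSB at 0.129. Neighbours that did not differ beyond counting error were FOSL2 and JUND as well as FOSL1 and FOS in DSS+polydatin, FOS and FOSL1 in DSS, and JUN with JUNB, JUNB with ATF3 and ATF3 with FOS in control. The places of ATF3, JUN, JUNB, FOS and FOSL1 depend on the length used. With the longest transcript as length, ATF3 stood at 30.3 CPM per kb in DSS+polydatin, 14.6 in DSS and 6.86 in control, above JUN in each library, and FOS stood at 4.49, 4.25 and 4.52, above FOSL1 in each. FOSL2 and JUND were first and second and FOSB last in each library with either length.

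Summed per length, the JUN genes gave 64.8 CPM per kb in DSS+polydatin, 39.9 in DSS and 16.4 in control, and the FOS genes 48.4, 41.4 and 28.5. The JUN sum was above the FOS sum in DSS+polydatin and below it in control. In DSS the JUN sum was slightly below the FOS sum. With the longest transcript as length that gap was wider, at 39.9 for JUN and 45.8 for FOS. No intervals were computed for the sums, so whether the gap in DSS exceeds counting error was not tested. FOSL2 made up 85.8% of the FOS sum in DSS+polydatin, 86.3% in DSS and 83.7% in control, and FOS itself 6.2%, 6.8% and 10.5%. In the JUN sum the share of JUND was 61.6% in DSS+polydatin, 60.0% in DSS and 50.7% in control. JUNB held 9.4% in DSS+polydatin, 9.9% in DSS and 23.6% in control, with JUN making up the rest. These shares rest on the gene length used, which takes all annotated exons as present.

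**Figure D3:**
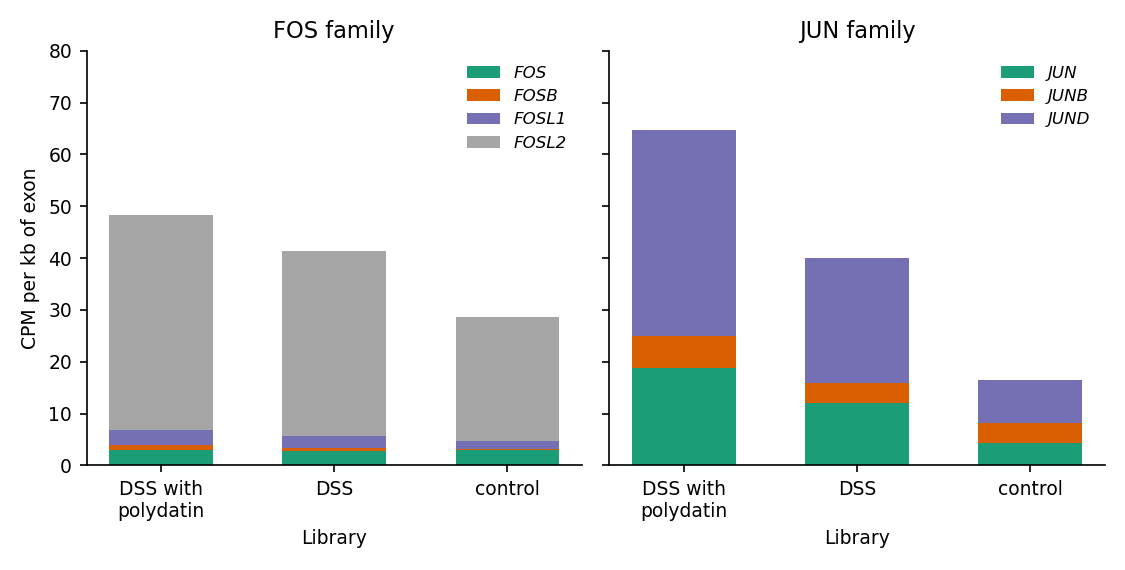
Summed level of the FOS genes and of the JUN genes (CPM per kb of exon) in the DSS+polydatin, DSS and control libraries, split by gene, without error bars. FOSL2 fills most of each FOS bar, and the JUN bars stand at 64.8, 39.9 and 16.4.

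Genes with the most similar pair of ratios were sought among the other genes with a CPM of at least 10 in a library (10084 for FOS, FOSB and FOSL1, and 10083 for the other members), by the distance in log2 ratio for DSS over control and DSS+polydatin over DSS. The nearest to JUN were IER3, an immediate early gene, and SQSTM1, which encodes the autophagy receptor p62, each at a distance of 0.072. SQSTM1 had 703.6 CPM in DSS+polydatin, 441.6 in DSS and 162.7 in control. LZTS3 and GCNT3 lay nearest to JUND at 0.024 and 0.055, and RETREG1 and KLF6 nearest to FOSB at 0.046 and 0.083. ATF3 had the most distant neighbours of the 8, EHD2 at 0.156 and BICDL1 at 0.175. The closest to FOSL1 were TUBB2A and C12orf57, to FOSL2 FADS2 and GADD45B, to JUNB RASSF1 and ERN1, and to FOS LRRC59 and RIN2, at distances of 0.005 to 0.033. With 3 libraries a short distance describes values only.

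**Figure D4:**
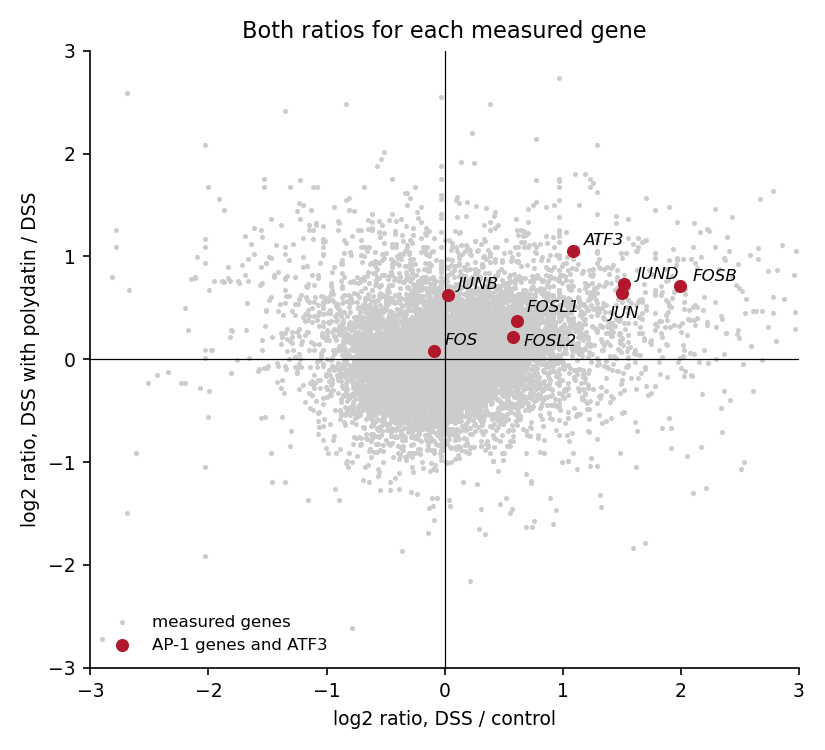
The log2 ratio of DSS over control (horizontal) and of DSS+polydatin over DSS (vertical) for each measured gene, grey, with AP-1 genes and ATF3 in red; 54 genes lie outside the axes, and both ratios share the DSS library. ATF3, JUN, JUND and FOSB lie to the upper right, JUNB directly above the origin and FOS near it.

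Among other basic leucine zipper genes whose proteins pair with JUN or FOS, 10 of 13 were measured. In DSS over control 4 were called higher and 1 lower, with a median log2 ratio of 0.16, beside 9.45% and 5.81% of measured genes and a median of -0.006. In DSS+polydatin over DSS 3 were called higher and none lower, with a median of 0.53, beside 5.39% and 2.60% of measured genes and a median of -0.012. MAFF, which encodes a small MAF protein without an activation domain, stood at 33.8 CPM in DSS+polydatin, 16.4 in DSS and 5.29 in control, a ratio of 3.09 in DSS over control (2.45 to 3.93) and 2.07 in DSS+polydatin over DSS (1.80 to 2.38). CREB5, which can pair with JUN, stood at 24.5, 12.5 and 5.07 CPM in the same order, ratios of 2.47 (1.93 to 3.18) and 1.96 (1.67 to 2.31). MAFK was 2.27-fold higher in DSS than in control (1.97 to 2.63).

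JDP2, which encodes a dimerization partner of JUN that represses AP-1 sites, was the one gene of that list called lower. It had 399 counts in DSS+polydatin, 289 in DSS and 610 in control, with a DSS over control ratio of 0.464 (0.402 to 0.535). Its DSS+polydatin over DSS ratio was 1.47 (1.26 to 1.71), short of a call. ATF2, a constitutive partner of JUN, stood at 106.0 CPM in DSS+polydatin, 99.6 in DSS and 105.6 in control.

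Transcripts of the upstream MAP kinase cascade were called about as often as measured genes at large. Of 19 measured genes of 20, 2 were called higher and none lower in DSS over control, and 1 higher and 1 lower in DSS+polydatin over DSS, with medians of 0.07 and -0.03. MAPK11, a p38 kinase gene, stood at 6.19 CPM in DSS+polydatin, 3.08 in DSS and 1.65 in control. It was 1.86-fold higher in DSS than in control (1.18 to 3.00) and 2.01-fold higher in DSS+polydatin than in DSS (1.45 to 2.83). MAPK7, the ERK5 gene, was 1.59-fold higher in DSS than in control (1.33 to 1.90), and MAP2K6, an activator of p38, was at 0.654 times the DSS level in DSS+polydatin (0.560 to 0.762). Of 10 factors that bind immediate early promoters, SRF and CREB1 among them, 1 was called in DSS over control. That was MEF2C, lower at 0.470 times control (0.364 to 0.604). None was called in DSS+polydatin over DSS. Over all measured genes, 9.45% were called higher and 5.81% lower in the first step, and 5.39% and 2.60% in the second. Kinase activity was not measured.

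All 13 regulators tied to ATF3 induction were measured. In DSS over control none was called higher and 1 lower, against 9.45% and 5.81% of measured genes, with a median log2 ratio of -0.23. In DSS+polydatin over DSS 2 were called higher and none lower, against 5.39% and 2.60%, with a median of 0.27. EIF2AK3, the gene of the stress kinase PERK, stood at 88.1 CPM in DSS+polydatin, 68.1 in DSS and 50.7 in control. Its ratio was 1.34 in DSS over control (1.23 to 1.47), short of a call. In DSS+polydatin over control it was called higher, at 1.74 (1.60 to 1.89). ATF4, which drives ATF3 in the integrated stress response, stood at 543.5 CPM in DSS+polydatin, 441.3 in DSS and 531.8 in control. ATF4 protein and activity were not measured, and a part of ATF4 in the ATF3 values was not tested. EGR1, an immediate early factor, stood at 46.4 CPM in DSS+polydatin, 27.0 in DSS and 69.2 in control, with a DSS over control ratio of 0.391 (0.352 to 0.434) and a DSS+polydatin over DSS ratio of 1.72 (1.53 to 1.92). CEBPB was 1.51-fold higher in DSS+polydatin than in DSS (1.34 to 1.70). Its DSS over control ratio was 0.729 (0.646 to 0.822), short of a call. Its levels were 38.71 CPM in DSS+polydatin, 25.69 in DSS and 35.25 in control.

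AU-rich elements control decay of messages such as FOS. Of 7 genes for proteins that bind them, ZFP36 was called higher in both steps and no other gene was called in either. Over all measured genes, 9.45% were called higher and 5.81% lower in DSS over control, and 5.39% and 2.60% in DSS+polydatin over DSS. ZFP36, which encodes the decay factor tristetraprolin, stood at 37.6 CPM in DSS+polydatin, 23.9 in DSS and 10.4 in control, ratios of 2.30 in DSS over control (1.94 to 2.75) and 1.58 in DSS+polydatin over DSS (1.40 to 1.78). The medians of that list were -0.05 and -0.10. Of 5 genes for turnover of JUN proteins, none was called in either step, beside the same shares of measured genes, with medians of -0.29 and -0.22. COP1, a ubiquitin ligase gene in that list, stood at 43.2 CPM in DSS+polydatin, 53.2 in DSS and 65.9 in control and was called lower in DSS+polydatin over control, at 0.656 (0.598 to 0.719).

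Of the 25 known AP-1 target genes reported here, 14 were measured, CXCL8 through the DSS+polydatin library alone. In DSS over control 6 were called higher and none lower, beside 9.45% and 5.81% of measured genes. The median log2 ratio was 0.64, beside a median of -0.006 over measured genes. In DSS+polydatin over DSS 5 were called higher and none lower, beside 5.39% and 2.60% of measured genes. The median was 0.30, beside -0.012. CXCL8 was among those 5, with 28 counts in DSS+polydatin, 10 in DSS and 3 in control. It passed the CPM filter only through the library where it was high, so its call adds no support. HBEGF, a growth factor gene, stood at 39.2 CPM in DSS+polydatin, 22.1 in DSS and 7.71 in control, ratios of 2.87 in DSS over control (2.36 to 3.50) and 1.77 in DSS+polydatin over DSS (1.56 to 2.01). PLAU, the urokinase gene, and CCL2, a chemokine gene, were higher in DSS than in control at 4.46-fold (2.97 to 6.92) and 2.82-fold (2.16 to 3.72), with ratios in DSS+polydatin over DSS of 0.982 (0.761 to 1.27) and 1.05 (0.863 to 1.27). The laminin gene LAMA3 and the cyclooxygenase gene PTGS2 were higher in DSS+polydatin than in DSS at 1.84-fold (1.70 to 1.99) and 1.56-fold (1.42 to 1.72).

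Matrix metalloproteinase genes on the target list had few counts. MMP1 had 11 counts in DSS+polydatin, 19 in DSS and 23 in control, MMP13 had 6, 8 and 3, MMP9 had 0 in all 3, and MMP3, MMP7 and MMP10 had 0 to 3. CCND1, the cyclin D1 gene, stood at 351.0 CPM in DSS+polydatin, 413.1 in DSS and 454.8 in control. ATF2, ATF4, EIF2AK3, COP1, CXCL8, IER2, the MMP genes and CCND1 were chosen for mention after their values were seen.

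**Figure D5:**
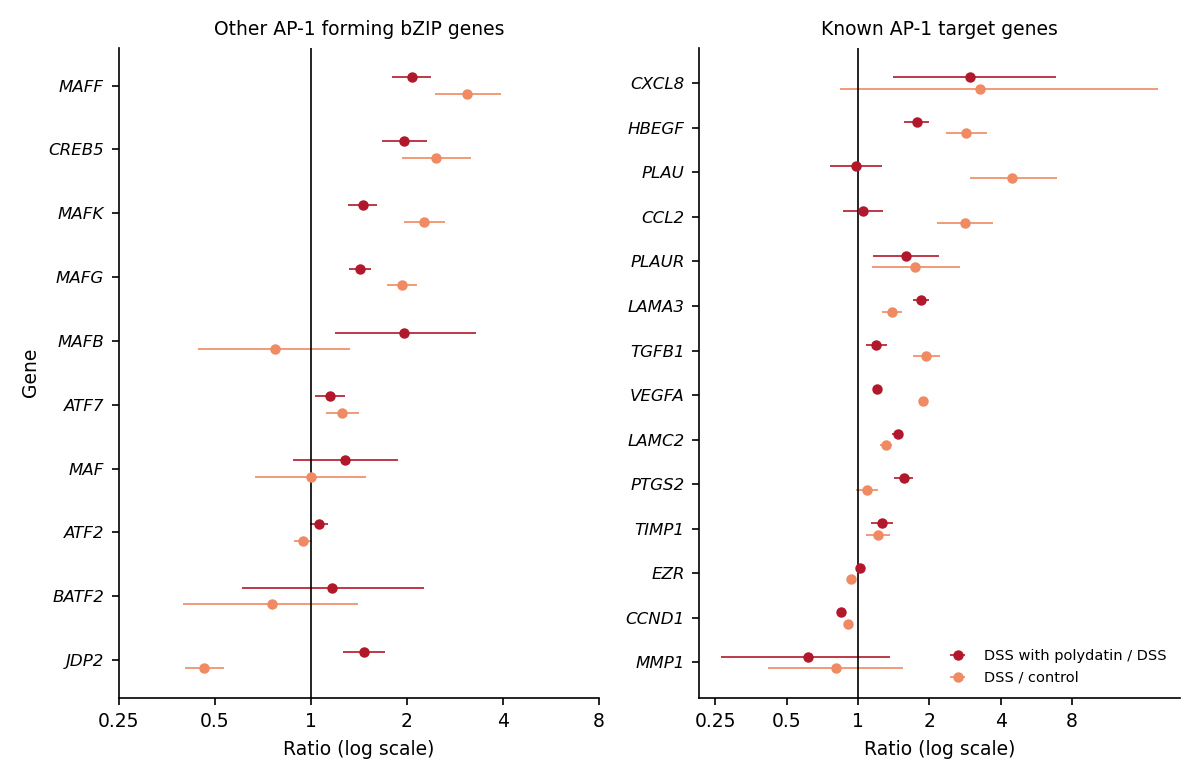
Ratio of DSS+polydatin over DSS (red) and of DSS over control (orange), log axis, with exact 95% counting intervals, for the measured genes of the partner list and of the AP-1 target list, sorted by DSS+polydatin over control. MAFF, CREB5 and HBEGF lie above 1 in both ratios, while JDP2 lies below 1 in DSS over control and above it in DSS+polydatin over DSS.

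The other immediate early genes were mixed. Of 20, 16 were measured, with 6 called higher and 1 lower in DSS over control and 8 higher and 2 lower in DSS+polydatin over DSS, beside 9.45% and 5.81%, and 5.39% and 2.60%, of measured genes. The medians were 0.49 and 0.62, beside -0.006 and -0.012. DUSP5, a MAP kinase phosphatase gene, was 6.31-fold higher in DSS than in control (5.27 to 7.61) and 2.12-fold higher in DSS+polydatin than in DSS (1.96 to 2.30). DUSP4, another such phosphatase gene, was called higher in the same 2 comparisons, at 5.55-fold (3.91 to 8.05) and 1.65-fold (1.39 to 1.97). So was KLF6, a zinc finger factor gene, at 3.84-fold (3.53 to 4.17) and 1.579-fold (1.505 to 1.656). DUSP1 was called higher in both as well, at 2.69-fold in DSS over control (2.34 to 3.10) and 1.89-fold in DSS+polydatin over DSS (1.73 to 2.07). The nuclear receptor gene NR4A1 was 1.94-fold higher in DSS+polydatin than in DSS (1.69 to 2.22). Its DSS over control ratio was 1.48 (1.24 to 1.76), short of a call. IER2 stayed as level as FOS, at 29.1 CPM in DSS+polydatin, 29.5 in DSS and 28.97 in control. MYC and DUSP6 were lower in DSS+polydatin than in DSS, at ratios of 0.556 (0.527 to 0.586) and 0.621 (0.566 to 0.680).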

How the data were processed

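RNA from 3 Caco-2 samples was sequenced after Trizol extraction and library preparation with a VAHTS Universal V6 kit, per the labels' protocols. Reads were aligned with HISAT2 to GRCh38, per the submitters' processing notes. The sources used here do not state the aligner version, counting program, annotation or strand setting. The deposited values are raw read counts per Ensembl gene. Symbols matched 60463 of 60664 identifiers (99.7%). Coordinates, exon length, longest transcript and GC content came from GENCODE 29 (GRCh38), and promoters from RefSeq (GRCh38.p14).

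Counts were scaled with TMM factors of 1.046 for DSS+polydatin, 0.984 for DSS and 0.971 for control (edgeR 4.0.16, R 4.3.3). Ratios of scaled counts carry exact 95% Clopper-Pearson intervals, and levels exact Poisson intervals (Python 3.11.15, scipy 1.17.1). No molecular identifiers are described, so reads need not be independent molecules and intervals cover counting error only. A count of 3 was 0.172, 0.162 and 0.165 CPM in the same order. In ratios with a count of 0, 0.5 was added to both counts. With 1 library a group no test of conditions was made. The ratio method was run on simulated Poisson counts, which hold counting error alone. Variation between cultures or preparations was not covered by that run.

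Alternatives were scaling by total counts or by size factors from DESeq2 1.42.0, measuring without a filter or from a CPM of 10, a 2-fold rule, thinning to 16667622 counts, removal of a GC content and length trend (statsmodels 0.14.6; values for 99.4% of measured genes) and the longest transcript as length (for single levels chosen after seeing the data). Named genes are all members, up to 3 called genes per list, direction and step ranked by their nearer interval bound where a library reached a CPM of 5, and the 2 nearest genes of each member. From the lists, 1 AP-1 target gene was left out of counts, medians and plot, and it and 1 immune marker are not reported here. Members and lists were chosen with earlier results of these data known. Figures used matplotlib 3.10.9.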

Additional observations from a re-analysis of the deposited data

How the results depend on the processing

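No paired analysis was possible because each group has 1 library, and for the same reason no replicate could be left out. The count of members called lower was 0 in every comparison under every alternative. Under the 4 alternatives that recompute the ratio itself (scaling by total counts or DESeq2 size factors, thinning, and the GC and length correction), 93 of 96 member ratios kept their direction and 90 their call, and no called ratio changed direction. In DSS over control, members called higher numbered 3 with a CPM of at least 10, which leaves out FOS, FOSB and FOSL1 by construction. In DSS+polydatin over DSS they numbered 1 with the 2-fold rule, ATF3, and 2 after the GC and length correction, FOSB and ATF3. In DSS+polydatin over control they numbered 4 with the 2-fold rule. The median log2 ratio of that comparison was 2.14 over the 5 members left with a CPM of at least 10 and 1.18 after the correction, where JUNB was no longer called, at 1.15-fold (0.913 to 1.45). Why the correction moved these values was not tested.

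All measured genes called numbered 2257 in DSS over control, against 1187 with a CPM of at least 10 and 888 with the 2-fold rule. They numbered 1181 in DSS+polydatin over DSS, against 471 and 355, and 4196 in DSS+polydatin over control, against 2584 and 1745. With a CPM of at least 10, 50.3% of calls in DSS+polydatin over DSS were higher, against 67.5%. Total-count scaling shifted the median log2 ratio of all genes by 0.11 in DSS+polydatin over control. With the longest transcript as length, FOSL2 held 82.9% of the FOS sum in DSS+polydatin, 83.3% in DSS and 79.9% in control, FOS 8.4%, 9.3% and 14.2%, and FOSB 2.3% in DSS+polydatin and 1.7% in DSS. The same length, applied to levels after the data were seen, raised ATF3 by 1.92 times and FOS by 1.5 times. Depth limits FOSB, with 13 control counts, and FOSL1 the most.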
